A study of Mus musculus with 6 samples.

Results

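The genes described here switch ERK signalling off or report that it is on, and were measured in mouse aortic smooth muscle cells with and without trimethylamine N-oxide (TMAO). They were taken by name from the deposited tables: 4 dual-specificity phosphatase genes (Dusp1, Dusp4, Dusp5, Dusp6), the Sprouty and Spred genes Spry2, Spry4 and Spred1, the Etv transcription factor genes Etv4 and Etv5, and Phlda1. All 10 symbols were found once each among 25939 listed genes. The RNA came from vascular smooth muscle cells cultured from mouse aorta, in 3 Control libraries and 3 libraries of cells treated with TMAO for 48 h. TMAO is an oxidised amine that the liver makes from a product of gut bacteria. The sources used here give no dose or vehicle for TMAO, and no strain, sex or age of the mice. Nor do they say whether the libraries of a group came from separate cultures or animals, so the p-values measure the spread between these libraries, which may be technical.

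ERK is the last kinase of the Ras, Raf and MEK cascade that carries signals from growth factor receptors to the nucleus. Active ERK induces genes whose products then dampen the cascade: phosphatases of the DUSP family remove the activating phosphates from ERK and related kinases, and Sprouty and Spred proteins act higher up, between receptor, Ras and Raf. Because these transcripts are short-lived and follow ERK activity, their levels are widely used as a transcriptional readout of the pathway, and in smooth muscle the pathway is known for its part in growth and in the loss of contractile features.

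None of the 10 genes passed the test across all genes, although most had higher means after TMAO, as had 60.0% of all tested genes. Dusp6 and Dusp5 were 23.7% and 27.0% higher, Etv4 29.4% and Dusp4 10.9%. For these 4 genes every TMAO library lay above every Control library, a pattern seen in 12.4% of all tested genes. Dusp1, Spry2, Spry4 and Etv5 had higher means with overlapping groups, and Spred1 had nearly the same mean in both. Phlda1 stood near the detection filter.

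The values are FPKM, that is, fragment numbers divided by exon length and by the size of the library. Levels can therefore be compared between genes only roughly, because the length takes in all annotated exons, used in these cells or not. The library totals implied by the values ran from 14991252 to 16806728 reads, and 1 read in 1 kb of exon was worth 0.0595 to 0.0667 FPKM. Of the 8 smooth muscle markers, Acta2 and Myl9 stood at 487 and 99.1 FPKM in Control, and Smtn, Lmod1 and Des at 4.39, 2.22 and 1.11. Tagln, Cnn1 and Myh11, which define contractile cells, stood at 0.851, 0.702 and 0.0978 FPKM in Control. Of the 6 endothelial markers only Emcn (15.8 FPKM in Control, 12.3 in TMAO) reached the filter, with the other 5 at 0.165 FPKM or lower in Control and summed levels of 15.5 to 16.8 FPKM in Control and 12.5 to 13.1 in TMAO. Macrophage and leukocyte markers summed to 78.9 to 97.7 FPKM in Control and 76.1 to 83.9 in TMAO, mostly Lyz2, with Ptprc at 0.0399 and Itgam at 0.0404 FPKM in Control, and fibroblast markers to 446 to 489 and 447 to 481 FPKM, mostly Ly6a. The part of such cells in the results below was not tested. In bulk RNA, fewer cells of a type and less RNA per cell cannot be told apart.

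In Control cells the genes spanned a wide range of levels. Dusp4 had the highest FPKM, 41.6 ± 1.88 (SD, n = 3), followed by Spred1 at 23.1 ± 1.96, Dusp6 at 20.3 ± 1.25, Spry2 at 16.9 ± 1.52 and Dusp1 at 12.7 ± 1.46 FPKM. Dusp5 stood at 8.13 ± 0.566, Etv5 at 5.57 ± 0.197, Etv4 at 3.43 ± 0.284, Spry4 at 2.19 ± 0.160 and Phlda1 at 0.858 ± 0.166 FPKM. No neighbours in this order overlapped between libraries, although Spred1 (lowest 21.8 FPKM) and Dusp6 (highest 21.7 FPKM) were nearly at one level. In TMAO cells their order was the opposite: Dusp6 (lowest 24.04 FPKM) lay just above Spred1 (highest 23.95 FPKM), and the rest of the order was the same.

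**Figure D1:**
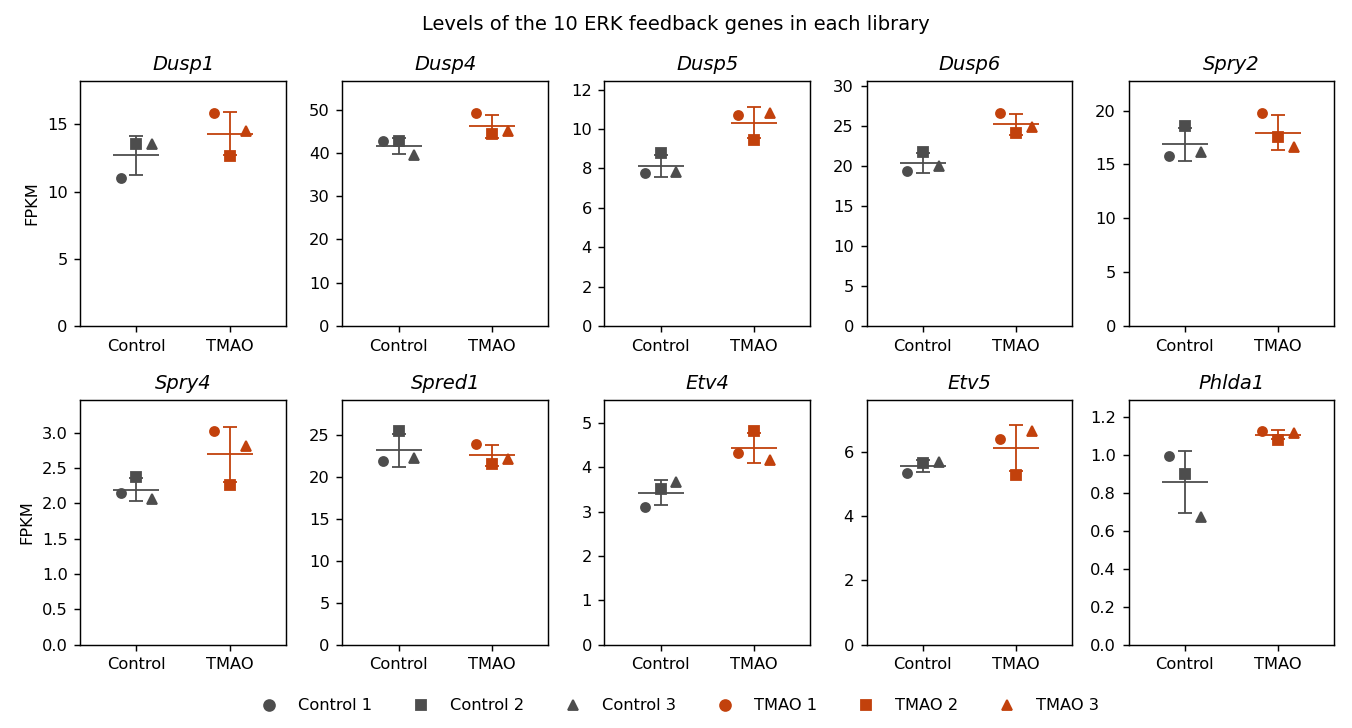
Level of each of the 10 genes in FPKM (vertical axes, each from 0) in the 3 Control (grey) and 3 TMAO (orange) libraries. The marker shape gives the replicate number, horizontal lines are group means and bars are SD. For Dusp4, Dusp5, Dusp6 and Etv4 the TMAO points lie above all Control points, as for 12.4% of all tested genes. The TMAO points also do so for Phlda1, which reached 1 FPKM only in the TMAO libraries. For the other genes the groups overlap.

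Sequences upstream of the transcription start were available for 6 of the 10 genes in RefSeq (build GRCm38.p6, which has the coordinates of mm10). The 250 bases before each start were searched. They are shown for the phosphatase genes Dusp5, Dusp1 and Dusp6, which differ in the elements through which signals are known to reach early genes, and each is shown without the bases at its end that GENCODE counts as exon of the gene. The GENCODE span of Dusp1 reaches further upstream, to base 26562128, so its window lies within that span. Letters in capitals are matches to the CArG box, the site of serum response factor, or to the cAMP response element TGACGTCA. Each sequence runs 5′ to 3′ on the strand of the gene.
Dusp5, chr19:53528895-53529108, plus strand: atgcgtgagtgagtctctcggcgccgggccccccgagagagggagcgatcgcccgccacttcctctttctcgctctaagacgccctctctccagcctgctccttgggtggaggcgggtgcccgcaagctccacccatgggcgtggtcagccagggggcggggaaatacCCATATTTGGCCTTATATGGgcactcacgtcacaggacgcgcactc
Dusp1, chr17:26508520-26508722, minus strand: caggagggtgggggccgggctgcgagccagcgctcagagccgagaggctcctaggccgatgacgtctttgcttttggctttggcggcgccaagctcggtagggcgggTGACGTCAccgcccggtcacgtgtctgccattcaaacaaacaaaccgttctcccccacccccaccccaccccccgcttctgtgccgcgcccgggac
Dusp6, chr10:99262981-99263230, plus strand: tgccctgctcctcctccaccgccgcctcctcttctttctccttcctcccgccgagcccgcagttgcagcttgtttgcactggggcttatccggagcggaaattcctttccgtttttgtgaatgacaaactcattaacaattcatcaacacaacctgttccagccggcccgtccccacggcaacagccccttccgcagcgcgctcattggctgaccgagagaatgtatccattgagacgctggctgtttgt

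Dusp5 held 2 CArG boxes directly next to each other, beginning 82 and 72 bases before its RefSeq start. Such a box was present in 1.47% of the 32817 windows of this length in the RefSeq table. Dusp1 held 1 cAMP response element, beginning 143 bases before its RefSeq start, an element found in 1.55% of windows. Dusp6 held neither, and neither did the windows of Spry2, Spred1 and Etv5 (for Etv5, at 2 starts). The AP-1 motif TGANTCA and the ETS motif CCGGAA, present in 6.75% and 12.0% of all windows, matched in none of the 7 windows of these genes. All motifs were searched on both strands. They are matches of letters only, to the forms given here. Other forms of these sites were not searched and may be present in the windows. Enhancers and introns were not searched either.

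The phosphatases differ in where they act: DUSP6 is cytoplasmic and DUSP5 nuclear, both selective for ERK, while DUSP1 and DUSP4 are nuclear and also act on the stress kinases p38 and JNK. Dusp6 (ENSMUSG00000019960, chromosome 10, 99263231 to 99267489 of mm10, plus strand) stood at 19.3, 21.7 and 19.97 FPKM in Control 1 to 3 and at 26.6, 24.04 and 24.9 FPKM in TMAO 1 to 3. The groups were separated by 2.29 FPKM, more than the SD within either of them. These values rest on 909 to 1051 reads in Control and 1167 to 1376 in TMAO. On the log2(FPKM + 1) scale of the test the difference was 0.29 ± 0.060 (SE, 95% interval 0.16 to 0.43), with a limma adjusted p = 0.0891. That p ranked 64 of 11062 genes. The call was gained with voom on recovered reads (adjusted p = 0.0308) and when only genes with a mean of at least 5 FPKM were tested (adjusted p = 0.0423).

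Dusp5 (ENSMUSG00000034765, chromosome 19, 53529109 to 53542431, plus strand) stood at 7.76, 8.78 and 7.84 FPKM in Control 1 to 3 and at 10.7, 9.43 and 10.8 FPKM in TMAO 1 to 3. The highest Control library, Control 2, and the lowest TMAO library, TMAO 2, were 0.652 FPKM apart. The difference was 0.31 ± 0.072 on the log2(FPKM + 1) scale (95% interval 0.15 to 0.47), with a limma adjusted p = 0.131. On the opposite strand, exons of Gm50394 cover 22.1% of the exon bases of Dusp5, and that gene was listed at 0.127 FPKM or lower in all 6 libraries. The strand setting of the counting is not given in the sources used here. These low values therefore cannot show whether reads in the shared bases were counted for Dusp5, whose level is uncertain in this respect.

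Dusp4 (ENSMUSG00000031530, chromosome 8, 34807297 to 34819894, plus strand) stood at 42.7, 42.8 and 39.5 FPKM in Control 1 to 3 and at 49.2, 44.2 and 45.1 FPKM in TMAO 1 to 3. The groups did not overlap, but TMAO 2 and TMAO 3 were closer to Control 1 and Control 2 than to TMAO 1. The log2 difference was 0.14 ± 0.055 (95% interval 0.02 to 0.27, limma adjusted p = 0.303).

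Dusp1 (ENSMUSG00000024190, chromosome 17, 26505590 to 26562128, minus strand) stood at 11.02, 13.5 and 13.6 FPKM in Control 1 to 3 and at 15.8, 12.6 and 14.5 FPKM in TMAO 1 to 3. TMAO 2 lay below Control 2 and Control 3, so the groups overlapped. The log2 difference was 0.16 ± 0.098 (95% interval -0.06 to 0.38, limma adjusted p = 0.538). Dusp1 varied more within both groups than the other phosphatases, with a coefficient of variation of 11.5% in Control and 11.3% in TMAO against 4.51% to 7.50% for Dusp4, Dusp5 and Dusp6.

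Sprouty and Spred proteins are membrane-associated inhibitors: Sprouties are phosphorylated after receptor activation and restrain signalling at or above Ras, and SPRED1 brings the Ras inactivator neurofibromin to the membrane. Spry4 (ENSMUSG00000024427, chromosome 18, 38586247 to 38601415, minus strand) stood at 2.14, 2.37 and 2.06 FPKM in Control 1 to 3 and at 3.02, 2.25 and 2.81 FPKM in TMAO 1 to 3. TMAO 1 and TMAO 3 lay above all Control libraries, and TMAO 2 lay just below Control 2. The mean was 22.7% higher after TMAO, about as much as for Dusp6, and the log2 difference was 0.20 ± 0.094 (95% interval -0.003 to 0.41, limma adjusted p = 0.385). With 153 to 237 reads per library, Spry4 was counted less precisely than Dusp6.

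Spry2 (ENSMUSG00000022114, chromosome 14, 105891947 to 105896819, minus strand) stood at 15.8, 18.6 and 16.2 FPKM in Control 1 to 3 and at 19.8, 17.5 and 16.6 FPKM in TMAO 1 to 3. The groups overlapped, and only TMAO 1 exceeded all Control libraries. The log2 difference was 0.09 ± 0.078 (95% interval -0.09 to 0.26, limma adjusted p = 0.699).

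Spred1 (ENSMUSG00000027351, chromosome 2, 117121374 to 117182279, plus strand) stood at 21.8, 25.4 and 22.2 FPKM in Control 1 to 3 and at 24.0, 21.5 and 22.2 FPKM in TMAO 1 to 3. No TMAO library exceeded Control 2, and the log2 difference was -0.03 ± 0.067 (95% interval -0.18 to 0.11, limma adjusted p = 0.876). It was the one gene of the 9 at 1 FPKM or more in every library whose mean was not higher after TMAO, and without Control 2 its difference was 0.032. It had 2225 to 2685 reads per library, the most of the 10 genes.

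Etv4 and Etv5 code for ETS transcription factors of the PEA3 group, which are induced by fibroblast growth factor and ERK signals. Etv4 (ENSMUSG00000017724, chromosome 11, 101769742 to 101785371, minus strand) stood at 3.11, 3.51 and 3.66 FPKM in Control 1 to 3 and at 4.33, 4.81 and 4.17 FPKM in TMAO 1 to 3. The groups did not overlap, and Etv4 was the only one of the 9 for which TMAO 2 was the highest library. The log2 difference was 0.30 ± 0.080 (95% interval 0.12 to 0.47, limma adjusted p = 0.166). Etv5 (ENSMUSG00000013089, chromosome 16, 22381309 to 22439719, minus strand) stood at 5.34, 5.68 and 5.68 FPKM in Control 1 to 3 and at 6.42, 5.30 and 6.65 FPKM in TMAO 1 to 3. Its TMAO 2 library was the lowest of all 6, and the log2 difference was 0.11 ± 0.082 (95% interval -0.07 to 0.29, limma adjusted p = 0.611).

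Phlda1 codes for a pleckstrin homology domain protein that growth factors induce. It (ENSMUSG00000020205, chromosome 10, 111506286 to 111508645, plus strand) stood at 0.997, 0.903 and 0.675 FPKM in Control 1 to 3 and at 1.13, 1.08 and 1.12 FPKM in TMAO 1 to 3, on 25 to 41 reads per library. The groups did not overlap, but the filter asked for 1 FPKM in 3 libraries and Phlda1 passed it only through the TMAO libraries, so this separation is not counted with the others. The log2 difference was 0.19 ± 0.095 (95% interval -0.02 to 0.40, limma adjusted p = 0.446), and with a filter on the mean of all 6 libraries Phlda1 was not tested. A gene on the opposite strand covers 33.0% of its exon bases, and the strand setting of the counting is not given in the sources used here, so its level is uncertain.

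**Figure D2:**
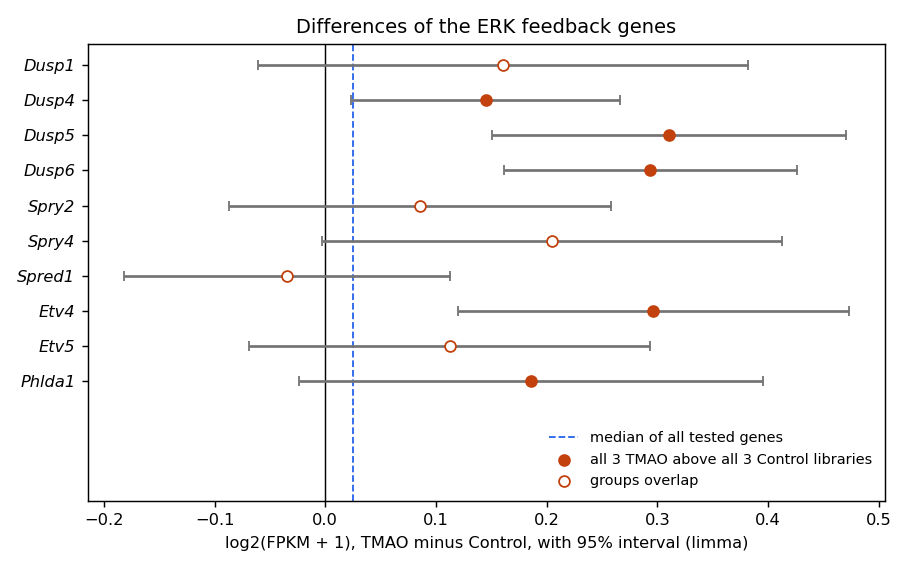
Difference between TMAO and Control on the log2(FPKM + 1) scale for each of the 10 genes (points) with its 95% interval from limma (bars). Filled points mark genes whose TMAO libraries all lie above the Control libraries. Phlda1, also filled, passed the filter only through its TMAO libraries. The dashed line is the median of all tested genes at 0.02. The intervals of Dusp4, Dusp5, Dusp6 and Etv4 lie above 0.

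Counted together, 9 of the 10 genes reached 1 FPKM in every library and can be set against the 11062 tested genes. With limma at an adjusted p of 0.05, 0 of the 9 were called, as was 0.181% of all tested genes (20 genes). Phlda1 was not called either. At an unadjusted p under 0.05, 4 of the 9 passed, all higher after TMAO, where 8.61% of tested genes did so in that direction. The same 4 genes, Dusp4, Dusp5, Dusp6 and Etv4, had all TMAO libraries above all Control libraries, a pattern seen in 12.4% of tested genes, and 0 of the 9 had the opposite pattern, seen in 6.23%. Higher means after TMAO were found for 8 of the 9 and for 60.0% of tested genes. The median log2 difference was 0.16 for the 9 genes and 0.02 for all tested genes. The genes were chosen with earlier results of these data known, so shares above those of all tested genes may reflect that choice. The count of 4 became 7 without TMAO 2, where 23.4% of genes showed the pattern, and 6 without Control 2, where 20.7% did.

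**Figure D3:**
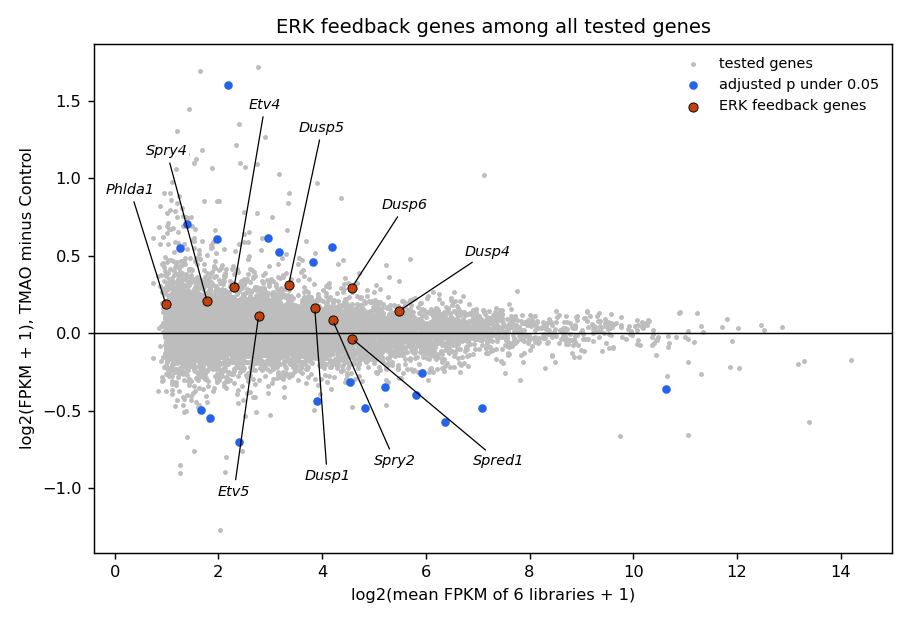
Mean level (horizontal axis, log2 of FPKM + 1) against the difference between TMAO and Control (vertical axis) for 11062 tested genes (grey), the 20 genes past an adjusted p of 0.05 (blue) and the 10 ERK feedback genes (orange). The feedback genes lie between -0.03 and 0.31, all but Spred1 above 0, and none is past the threshold.

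Single libraries stood high or low for many of the 9 genes at once. Control 1 was the lowest Control library for 7 of the 9 genes, which was not so for Dusp4 and Spry4 (lowest in Control 3). Control 2 was the highest Control library for 6 of them. Among the TMAO libraries, TMAO 1 was the highest for 6 of the 9 and TMAO 2 the lowest for 7. The exceptions were Spry2 and Etv4 (lowest in TMAO 3). How often each library was highest or lowest over all tested genes was not counted. These counts therefore do not show a trait particular to the 9 genes.

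The nuclear RNAs Malat1 and Neat1 were high and low in the same libraries. Malat1, a long non-coding RNA kept in the nucleus, stood at 75.03, 113 and 84.4 FPKM in Control 1 to 3 and at 218, 153 and 183 FPKM in TMAO 1 to 3 (limma adjusted p = 0.196). Neat1, the scaffold RNA of paraspeckles, stood at 2.74, 3.38 and 3.09 FPKM in Control and at 6.08, 3.57 and 5.26 FPKM in TMAO (limma adjusted p = 0.231). Reads in 667 weakly expressed genes that lie within introns of expressed genes on the same strand made up 56.9, 78.3 and 65.5 RPM (reads scaled to the library total) in Control and 141, 108 and 124 in TMAO. All 3 measures ranked the libraries in one order, from TMAO 1, TMAO 3 and TMAO 2 down to Control 2, Control 3 and Control 1. Dusp6 had exactly this order, and so did 1.16% of tested genes (128 genes). Dusp5 differed from it only in TMAO 1 and TMAO 3, which were nearly equal, whereas Etv4 did not follow it within either group. The part of nuclear or unspliced RNA in the differences of the feedback genes was not tested.

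**Figure D4:**
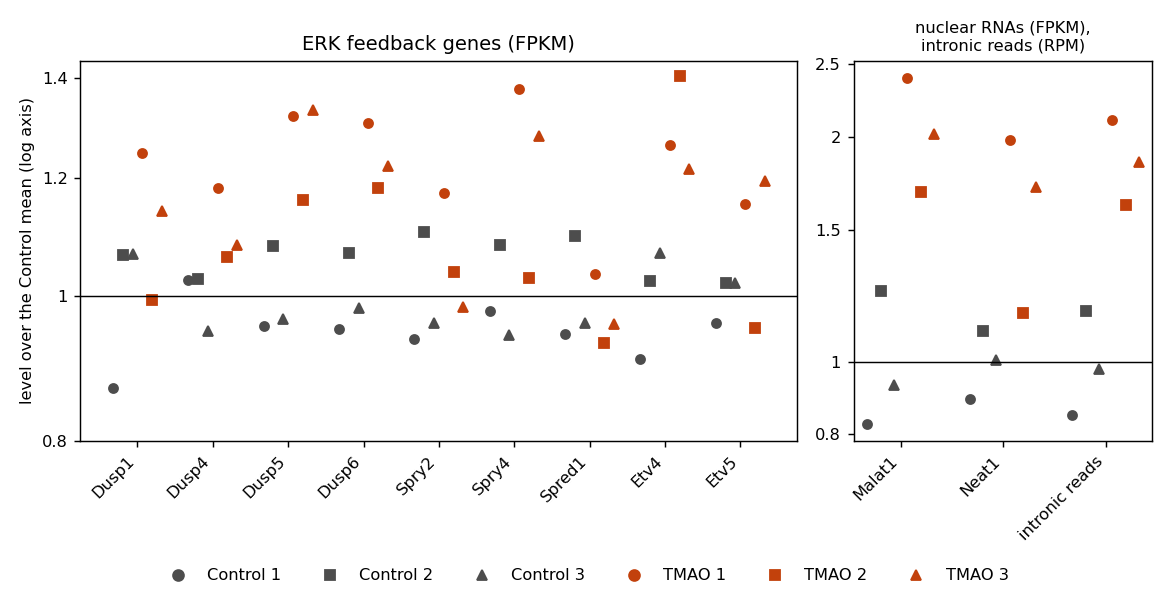
Level in each library relative to the mean of the Control libraries (log axes) for the 9 feedback genes in FPKM (left) and for Malat1 and Neat1 in FPKM and intronic reads in RPM (right). Colours give the group and shapes the replicate number. TMAO 1 is the highest and Control 1 the lowest library for Dusp6 and for all 3 measures on the right, whose range is wider.

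Likeness to Dusp6 was measured as Pearson's r of log2(FPKM + 1) over the 6 libraries, among 4014 other tested genes with a mean of at least 10 FPKM. The 5 most alike were Malat1 (r = 0.999), the splicing regulator gene Rbfox2 (0.989), the kinase gene Sgk1 (0.988), the chemokine gene Cxcl12 (0.988) and the nuclear RNA Xist (0.987). All genes were compared over the same 6 libraries in 2 groups, so these coefficients describe the pattern and are not evidence of a relation, and no test was made. Of the feedback genes Dusp5 was the most like Dusp6 (0.970), then Spry4 (0.878), Dusp4 (0.867) and Etv4 (0.828), and Spred1 was the least (0.187).

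Close relatives of these genes had differences in both directions, none of them past the threshold. Of 6 further MAP kinase phosphatase genes only 2 were tested: Dusp7, an ERK phosphatase, stood at 7.96 FPKM in Control and 7.49 in TMAO (log2 difference -0.08, limma adjusted p = 0.620), and Dusp10, which acts on p38 and JNK, at 3.90 and 3.97 FPKM (0.03, limma adjusted p = 0.944). Among 5 tested Sprouty, Spred, Etv and Phlda relatives, Spry1 and Spred3 both had a log2 difference of 0.22 (limma adjusted p = 0.364 and 0.303), Spred2 had -0.12 (0.457), Phlda3 -0.04 (0.786) and Etv1 0.00 (0.991). Of these 5, Spry1 and Spred3 passed as higher at an unadjusted p under 0.05, 0 passed as lower, and the median was 0.00. Of 11 further feedback inhibitors, 0 were called in either direction with limma, against 1 higher and 2 lower at an unadjusted p under 0.05, where 8.61% of all tested genes were higher and 4.48% lower. The receptor inhibitor gene Errfi1 had a log2 difference of 0.12, and the receptor regulator gene Lrig1 and the Ras GTPase activating gene Rasa1 each had -0.19 (limma adjusted p = 0.376, 0.310 and 0.245).

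Immediate early genes, which ERK induces within minutes, had the highest median of the 9 pathway lists, 0.19, with 0 of 17 tested genes called by limma. At an unadjusted p under 0.05, 10 of the 17 passed as higher and 0 as lower, where 8.61% and 4.48% of all tested genes did so. For 9 of the 17 every TMAO library lay above every Control library, as for 12.4% of all tested genes. This list too was chosen with earlier results of these data known, so its higher shares may reflect that choice. Fos, a subunit of the AP-1 transcription factor, stood at 5.86, 7.56 and 6.70 FPKM in Control 1 to 3 and at 13.3, 9.60 and 10.98 FPKM in TMAO 1 to 3 (log2 difference 0.67, limma adjusted p = 0.0940). In Fos, as in Dusp6, TMAO 1 was the highest and TMAO 2 the lowest TMAO library. The mRNA decay factor gene Zfp36 had 0.47 (limma adjusted p = 0.0871), the AP-1 gene Junb 0.44 (0.0940) and the antiproliferative gene Btg2 0.39 (0.124). These 4 early genes were named because they had the smallest p of the 17. The estimates of Dusp6 and Dusp5, 0.29 and 0.31, were below those of these 4 but above the list median of 0.19. The differences between genes were not tested.

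The genes of the ERK cascade itself were all tested, and none passed the threshold. Of 17 genes for Ras, Raf, MEK, ERK and their scaffolds, 10 had a positive difference, and the median was 0.01. Rras, for a Ras-related GTPase, had 0.14 (limma adjusted p = 0.248). Receptors and adaptors upstream had a median of -0.02 over 15 tested genes, and the PDGF receptor genes Pdgfra and Pdgfrb had -0.15 and -0.19 (limma adjusted p = 0.293 and 0.404). In the ligand list the median over 6 tested genes was 0.02, and Fgf10 and Fgf7 had -0.27 and -0.14 (limma adjusted p = 0.131 and 0.260). Kinases and transcription factors that ERK regulates had a median of 0.01 over 13 genes, and delayed ERK targets, among them Sprr1a (-0.50, limma adjusted p = 0.260) and the plasminogen activator gene Plau (0.23, 0.381), a median of 0.05 over 11 genes. None of these lists had a call in either direction with limma. At an unadjusted p under 0.05 they held 1 higher and 1 lower gene of the cascade, 1 lower receptor gene, 2 lower ligand genes, 1 higher ERK-regulated gene, and 1 higher and 2 lower delayed targets, where 8.61% of all tested genes were higher and 4.48% lower.

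**Figure D5:**
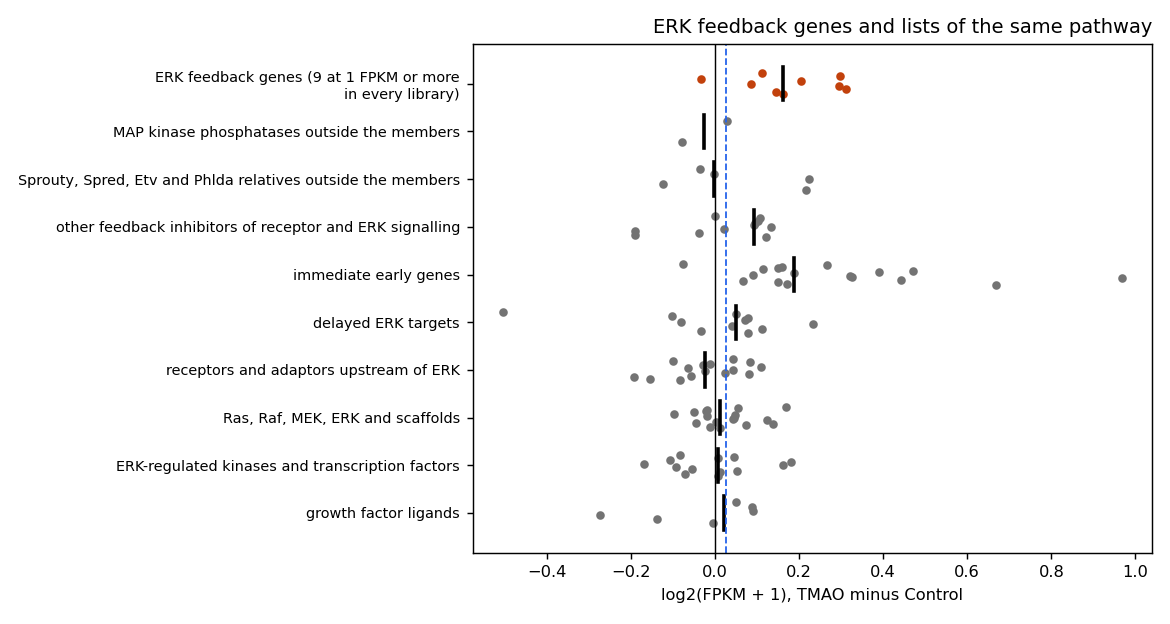
Difference between TMAO and Control on the log2(FPKM + 1) scale for the 9 feedback genes at 1 FPKM or more in every library (orange) and each tested gene of 9 pathway lists (grey), with the median of each as a black bar and the median of all tested genes as a dashed line. These 9 genes (median 0.16) and immediate early genes (0.19) have the highest medians.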

How the data were processed

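The authors deposited 1 table per library with gene identifiers, symbols and FPKM values (the header of Control 1 reads PKM). Libraries were stranded and poly(A)-selected, per the labels' protocols. The submitters' processing notes list Trimmomatic, HISAT2, Cufflinks, HTSeq and mm10, without versions. Libraries were grouped by their titles.

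Exon lengths and positions came from GENCODE M21 (mm10). With 1 total per library, the values of 98.5% of 25885 annotated genes gave whole reads in all 6 libraries, to within 0.01 reads.

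The 11062 genes that reached 1 FPKM in 3 or more libraries were fitted across all genes with limma 3.58.1 (R 4.3.3), trended and robust, on log2(FPKM + 1). This scale understates changes of low genes. P-values were Benjamini-Hochberg adjusted over all tested genes at 0.05. Scripts were tested on simulated data. Figures used Python 3.11.15 and matplotlib 3.10.9.

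The 10 genes and the pathway and marker lists were chosen with earlier results of these data known. All 10 genes are named, and from each pathway list the genes past the threshold or up to 4 with the smallest p, except 1 gene that is not reported here. The lists are described by counts and medians. Alternatives covered scaling, filters, pseudocount, variance, pairing, recovered reads and each library left out. A filter on the mean of all 6 libraries was added after seeing the data. Pairs of libraries within a group differed by more than sampling noise, with a chi-square per degree of freedom of at least 3.19.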

Additional observations from a re-analysis of the deposited data

How the results depend on the processing

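Over 15 alternatives, Dusp1, Dusp4, Dusp5, Dusp6, Spry2, Spry4, Etv4, Etv5 and Phlda1 kept a positive difference wherever they were tested (Spry4 and Etv4 in 14, Phlda1 in 10). Spred1 turned positive, to 0.032, without Control replicate 2, and reached -0.077 without TMAO replicate 1. Dusp6 ranged from 0.25 to 0.34 (adjusted p 0.0308 to 0.428). The number of the 10 genes past the adjusted threshold, 0, became 1 with voom on recovered reads and 1 with a mean of at least 5 FPKM, both times Dusp6, and was 0 in the 13 others. Of the 9 genes above 1 FPKM in every library, 4 to 7 had all TMAO libraries above all Control libraries when 1 library was left out. That pattern was then seen in 16.7% to 23.4% of all tested genes, against 12.4% with all 6 libraries. It depended on scaling too: 9.86% of all tested genes had it with quantile normalization and 9.1% with median-ratio size factors. In both, 4 of the 9 genes had it. The median log2 difference of all tested genes was -0.002 and 0.001 with these 2 scalings, against 0.02 without them. The count over all tested genes, 20, became 0 with no filter, 50 with a mean of at least 5 FPKM and 91 with voom, and 11 to 58 without 1 library (11 without Control replicate 3, 13 without TMAO replicate 1, 58 without TMAO replicate 2). The cause of these shifts was not tested. With the replicate block it was 22, and 0 of the 10 genes passed. Deviations of same-numbered libraries had correlations of -0.09, -0.10 and 0.06. Control 1 correlated best with TMAO 2 (0.10), Control 2 with TMAO 1 (0.14) and Control 3 with TMAO 3 (0.06). With 3 libraries per group, such values cannot show whether same-numbered libraries shared a culture or batch. With 25 to 41 reads per library, depth limits Phlda1 most.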
